A study of Caenorhabditis elegans with 20 samples.

Results

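The 4 libraries described here are those of the wild-type strain N2, the standard laboratory strain of Caenorhabditis elegans, at day 1 of adulthood. They were chosen by the strain label alone and are 4 of 20 in the series, which sequenced total RNA. The other 16 libraries, also of day 1 adults, come 4 each from CF3050, labelled pgrn-1(-) and called the null here, and from 3 strains labelled pgrn-1(-) with granulin 1(+) (AWK33), granulin 2(+) (AWK43) or granulin 3(+) (AWK107). All 5 strains were synchronised by egg lay and received no further treatment. The pgrn-1 gene encodes progranulin, a secreted protein that is cleaved into granulins. The labels name neither the sex nor a tissue. Nothing in them ties the 4 replicates of a group to separate cultures, so the p-values may rest on technical spread alone.

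A day 1 adult of the laboratory strain is, as background, usually a self-fertilising hermaphrodite that made its sperm in the last larval stage and now makes oocytes. Its gonad fills much of the body, and its uterus can hold developing embryos. The adult intestine makes yolk proteins that are passed to the oocytes, and the hypodermis makes the collagens of the adult cuticle. In RNA of whole animals, fewer cells of a type and less RNA per cell cannot be told apart.

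Replicate 4 stood apart from replicates 1 to 3, so levels are given library by library and, for summaries that it moves, also without it. The libraries of replicates 1 to 4 held 49262671, 54594515, 50475856 and 55184445 reads. Ribosomal RNA genes took 1.05%, 4.87% and 5.92% of the reads in replicates 1 to 3 and 44.8% in replicate 4. Protein-coding genes were left with 48527730, 51691587, 47244053 and 29979731 reads. Over the 10448 protein-coding genes with a mean of at least 1 TPM, Pearson's r of log2(TPM + 1) was 0.982 to 0.988 between replicates 1, 2 and 3. With replicate 4 it was 0.875 to 0.907, a description across genes that share libraries. No pair of libraries agreed within sampling noise, with chi-square per degree of freedom between 54.9 and 1285, so each counted as 1 sample. Levels between genes are given per transcript length, as TPM (transcripts per 1000000) over the 19725 protein-coding genes, so ribosomal RNA does not enter them.

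The gene that the other strains lack or carry in altered form, pgrn-1 (WBGene00011936, I:11701631-11703698), was transcribed in every wild-type library. Its level was 13.2, 14.6, 18.5 and 35.5 TPM in replicates 1 to 4, from 527, 559, 743 and 871 reads, or 20.5 ± 10.3 TPM (SD, n = 4) and 15.4 ± 2.79 TPM in replicates 1 to 3. The null libraries held 0.12 to 0.542 TPM of it, granulin 1 libraries 279 to 1215 TPM, granulin 2 libraries 146 to 454 TPM and granulin 3 libraries 419 to 773 TPM. No library of the null or the granulin strains overlapped the wild type at this gene.

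Most of the 25 most abundant protein-coding transcripts of the wild-type adult encoded yolk and ribosomal proteins. The vitellogenins, the yolk precursors, held the 1st, 2nd and 4th places. The gene vit-6 (IV:8261157-8266459) had 6164, 17533, 6980 and 25039 TPM in replicates 1 to 4, with a mean of 13929 ± 9037 TPM (SD, n = 4). Its X-linked relative vit-2 (X:5101042-5106169) had 5791, 15981, 7126 and 24710 TPM. Replicates 2 and 4 were high and replicates 1 and 3 low at both genes. Between them in rank and below, eef-1A.1 (III:6970026-6971712), the elongation factor that brings aminoacyl-tRNA to the ribosome, had 8272, 12289, 9004 and 14306 TPM.

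The 25 highest protein-coding genes held 4 vitellogenins and 14 ribosomal protein genes. They also held col-119 (IV:8978926-8979795), a cuticle collagen, with 3228, 3529, 4136 and 14329 TPM in replicates 1 to 4. A fatty acid and retinol binding protein gene, far-2 (III:9081828-9082511), had 2951, 3211, 3118 and 12268 TPM. Both had similar levels in replicates 1 to 3 and were high in replicate 4. The opposite order was seen for sip-1 (III:10506106-10506801), a small heat shock family gene, which had 5861, 6219, 4721 and 785 TPM. It was also seen for vig-1 (II:1321037-1323073), which had 5063, 4826, 4686 and 1805 TPM. The mitochondrial genes CYTB and COX1, which encode cytochrome b and a cytochrome c oxidase subunit, averaged 4001 ± 1878 and 3818 ± 1325 TPM (SD, n = 4).

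Together these 25 genes held 11.2%, 14.5%, 11.6% and 17.9% of the protein-coding TPM in replicates 1 to 4. Of the 25 highest genes of each single library, 20, 20, 20 and 11 were among them. Without replicate 4, 21 of the 25 stayed in the list. The ranking rests on the division by length: by reads alone, with no length scaling, 12 of the 25 stayed.

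**Figure D1:**
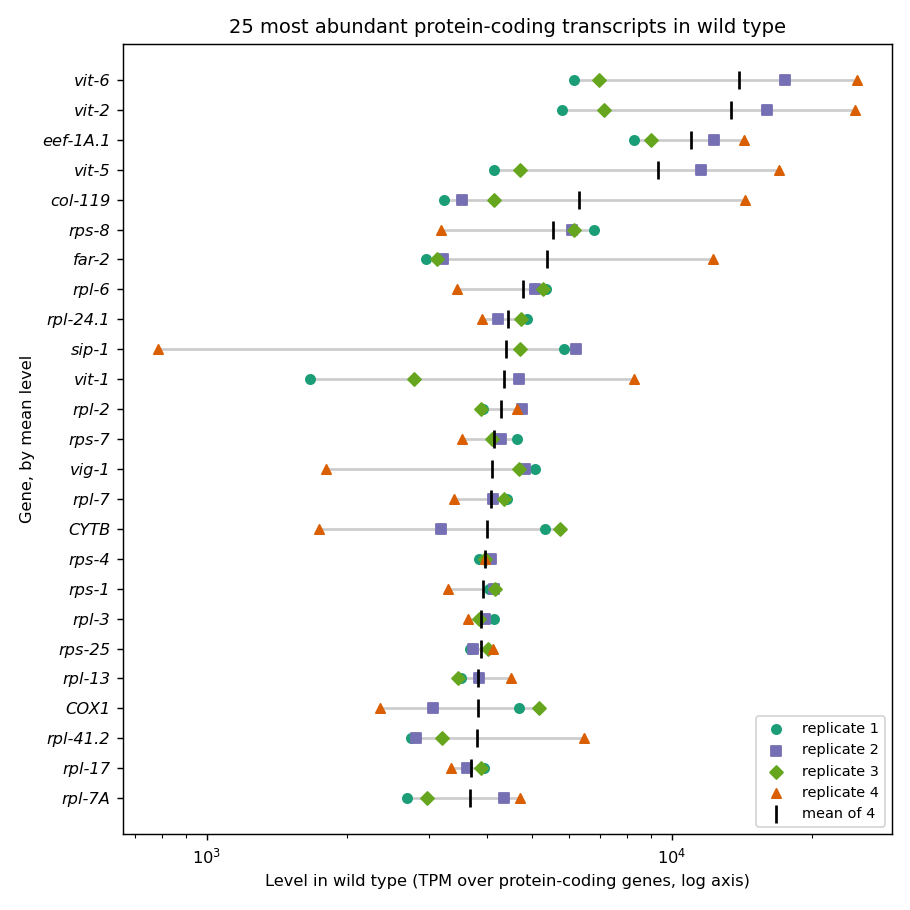
Each row is 1 of the 25 protein-coding genes with the highest mean level in wild type, with TPM on a log axis, a symbol for each of the 4 libraries and a bar at their mean. Replicate 4 is highest for vit-6 (25039 TPM), col-119 (14329 TPM) and far-2 (12268 TPM) and lowest for sip-1 (785 TPM).

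Expression was concentrated in few genes. Among the 19725 protein-coding genes, 174 averaged at least 1000 TPM and held 43.3% of the total, and 1500 between 100 and 1000 TPM held 33.6%. A further 5070 genes between 10 and 100 TPM held 21.5%, and 3704 between 1 and 10 TPM held 1.46%. The median was 1.44 TPM over all protein-coding genes and 3.03 TPM over the 17322 with at least 1 read. The 100 highest genes of each library held 29.2%, 33.5%, 30.6% and 43.9% of its protein-coding TPM in replicates 1 to 4. Replicate 4 was the most concentrated, since 132 genes held 50% of its protein-coding TPM, against 395, 291 and 349 genes in replicates 1 to 3.

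Genes of the oocyte and the eggshell were abundant. All 30 had reads in every library and at least 10 TPM, with a median of 424 TPM, or 541 TPM in replicates 1 to 3. Their summed level was 2.59%, 2.92%, 2.22% and 0.978% of the protein-coding TPM in replicates 1 to 4. The highest member, perm-2, a gene needed for the permeability barrier of the egg, had 3234, 3376, 2806 and 3094 TPM. The Y-box RNA-binding protein gene cey-2 had 2927, 2837, 2895 and 1060 TPM, and perm-4, another barrier gene, had 2229, 2866, 1748 and 2245 TPM. Both perm genes had in replicate 4 a level within the range of the others, while cey-2 was lowest there.

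Most of the class was low in replicate 4, as cey-2 was. Relative to the mean of replicates 1 to 3, 27 of the 30 genes were at least 2-fold lower there and none was 2-fold higher, with a median difference of -2.76 in log2(TPM + 1). Over all 6744 protein-coding genes with at least 10 TPM, 40.4% were 2-fold lower in replicate 4 and 7.77% 2-fold higher, with a median difference of -0.74. The eggshell proteoglycan gene cpg-1 had 2267, 3801, 1903 and 284 TPM in replicates 1 to 4. The maternal RNA-binding protein genes pos-1 and mex-5, which pattern the early embryo, had 137 and 118 TPM in replicate 4, against 1002 to 1396 and 956 to 1315 TPM in replicates 1 to 3. The yolk receptor gene rme-2 had 388, 551, 346 and 97.0 TPM.

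The 35 genes of P granules, the germline RNA granules, and of meiosis were lower but also detected throughout, with a median of 84.9 TPM and all at 10 TPM or above. They summed to 1.17%, 1.30%, 1.06% and 0.405% of the protein-coding TPM. The highest were car-1, encoding an RNA granule protein, with 3714, 4229, 3186 and 960 TPM, and the RNA helicase gene cgh-1 with 2807, 3409, 2539 and 850 TPM. The translational repressor gene gld-1, which acts in the meiotic germline, had 1159, 1353, 1031 and 377 TPM. Replicate 4 was the lowest library at 30 of the 35 genes, and 20 were at least 2-fold lower there than in replicates 1 to 3, with a median difference of -1.25. Over the 6744 genes with at least 10 TPM, replicate 4 was lowest at 67.2%, and 40.4% were 2-fold lower there with a median of -0.74.

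Sperm genes were at or near the limit of detection. Of 29 genes that act in sperm formation or function, 1 (spe-29) had no read in any library and 27 averaged below 1 TPM. The exceptions were spe-44, a transcription factor gene of the switch to spermatogenesis, with 18.2, 17.4, 14.8 and 6.23 TPM, and spe-6, a casein kinase gene, with 4.27, 3.52, 3.96 and 1.19 TPM. Next came spe-41, a calcium channel gene needed for fertilisation, with a mean of 0.632 ± 0.285 TPM (SD, n = 4). The whole list summed to 0.0029%, 0.00275%, 0.00212% and 0.00109% of the protein-coding TPM.

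The 54 genes of the major sperm proteins, which form the sperm cytoskeleton, and of the small sperm families had a median of 0.804 TPM. Of these, 7 had no read in the wild type, namely msp-32, msp-58, msp-74, nspd-8, ssp-32, ssp-36 and WBGene00006038, one of 2 genes that carry the name ssp-9. The highest was ssp-37 with 8.32, 9.06, 9.90 and 38.4 TPM, and replicate 4 was the high library. It was followed by nspd-1 with 15.1, 7.18, 5.03 and 0.685 TPM and nspd-2 with 7.97, 6.0, 1.68 and 0.685 TPM, where replicate 1 was high. Replicate 1 was the highest library at 36 of the 47 members with reads, and the sums were 0.0129%, 0.00866%, 0.00453% and 0.00596%. These genes are near-identical copies, so the split of reads among them is uncertain.

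Transcripts of 3 embryonic lineage regulators were above 10 TPM and most of the others below 1 TPM. The genes skn-1 and pal-1, whose maternal RNA is known to specify blastomeres, averaged 129 ± 57.1 and 119.4 ± 21.2 TPM (SD, n = 4). The T-box gene tbx-9 averaged 40.2 ± 19.9 TPM. The endoderm and mesoderm factor gene med-1 had no read, its copy med-2 had 0.0284 TPM, and 9 of the 13 genes were below 1 TPM. The level of pal-1 was 133, 126, 130 and 87.9 TPM in replicates 1 to 4, and 9 of the 12 genes with reads were lowest in replicate 4. Over the 6744 protein-coding genes with at least 10 TPM, which include only 3 of these 13, replicate 4 was lowest at 67.2%. Of the 9 genes, tbx-8, ceh-51 and end-1 had 0 reads there and only 2 to 35 reads in replicates 1 to 3. Male-specific genes were close to absent, with all 8 below 1 TPM. Of these, cwp-1, cwp-2 and cwp-3, genes of male sensory neurons, had no read, and try-5, a seminal fluid protease gene, was highest with 0.164 ± 0.0526 TPM.

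The 6 vitellogenin genes summed to 1.95%, 5.50%, 2.40% and 8.33% of the protein-coding TPM in replicates 1 to 4, a mean of 4.55 ± 2.98% (SD, n = 4). All 6 were highest in replicate 4 and lowest in replicate 1. The third highest, vit-5 (X:3403471-3408603), had 4144, 11517, 4701 and 16960 TPM, and it is near-identical to vit-3 and vit-4, so the split of reads among them is uncertain. Their place in the transcriptome depends on the length scaling: these long transcripts took 15.2% of the protein-coding reads on average.

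Intestinal genes other than the vitellogenins were moderate to high, with all 18 above 1 TPM and a median of 119.2 TPM. The aspartyl protease gene asp-1 had 2281, 2463, 2276 and 7563 TPM and the cysteine protease gene cpr-1 had 1082, 1220, 764 and 3009 TPM. A further cathepsin B-like gene, cpr-6, had 829, 1005, 1065 and 1735 TPM. Replicate 4 was the highest library at all 3 and at 13 of the 18 genes. The sum was 0.645%, 0.690%, 0.622% and 1.67% of the protein-coding TPM, or 0.652 ± 0.0344% in replicates 1 to 3.

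Cuticle collagens ranged from no read to over 1000 TPM. Of 156 numbered collagen genes, 17 averaged at least 1000 TPM, 5 lay between 100 and 1000, 20 between 10 and 100 and 33 between 1 and 10 TPM. The other 81 were below 1 TPM, and 11 of these had no read. After col-119, the highest were col-122 with 1798, 2203, 2738 and 7339 TPM and col-140 with 1404, 1523, 1850 and 8638 TPM. The adult-specific collagen gene col-19, which marks the adult cuticle and so bears on the stage label, had 1141, 754, 1270 and 2770 TPM. The family summed to 1.98%, 1.99%, 2.57% and 7.63% of the protein-coding TPM, so replicate 4 held 3.50 times the mean of replicates 1 to 3. There 47 members were at least 2-fold higher than in replicates 1 to 3, and 2 were 2-fold lower, beside 4.55% higher and 15.1% lower among all 19725 protein-coding genes on log2(TPM + 1).

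Genes of the larval moult were low but present. The 13 genes had a median of 3.94 TPM, led by nas-37, an astacin protease gene that acts in cuticle shedding, with 16.8, 16.2, 12.2 and 22.4 TPM. The apical matrix genes noah-2 and noah-1 had 3.30, 13.7, 4.92 and 10.3 TPM, and 1.93, 10.9, 3.24 and 12.1 TPM. Replicates 2 and 4 were high and replicates 1 and 3 low at both, as at the vitellogenins. Unlike those, noah-2 was highest in replicate 2 and not in replicate 4. Replicate 2 was highest at 8 of the 13 genes and replicate 1 lowest at 8. In the hypodermis list, col-19 was the highest of 15 genes, followed by the transcription factor genes lin-26 with 117 ± 63.8 TPM and nhr-23 with 37.4 ± 19.9 TPM (SD, n = 4). In replicates 1 to 4, lin-26 had 158, 165, 118 and 26.4 TPM and nhr-23 had 48.0, 52.8, 40.5 and 8.52 TPM. Both were lowest in replicate 4, where col-19 was highest.

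Genes of body wall muscle were abundant, with a median of 153 TPM over 22 genes and 67.9 TPM in replicates 1 to 3. The myosin light chain gene mlc-2 had 921, 773, 969 and 3092 TPM and the troponin C gene pat-10 had 336, 257, 430 and 1459 TPM. The actin-binding cofilin gene unc-60 went the other way, with 1635, 1450, 1392 and 873 TPM. Replicate 4 was the highest library at 19 of the 22 genes and at least 2-fold higher than replicates 1 to 3 at 17, beside 7.77% of the 6744 genes with at least 10 TPM. The muscle myosin heavy chain gene unc-54 had 38, 103.9, 47.1 and 588 TPM, 9.34-fold higher in replicate 4 than the mean of replicates 1 to 3. The class summed to 0.447%, 0.415%, 0.436% and 1.21% of the protein-coding TPM.

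Pharyngeal genes were low in these whole-animal libraries. Of 15 genes, 13 averaged below 1 TPM, among them the pharyngeal myosin genes myo-2 with 0.616, 1.06, 0.108 and 0.722 TPM and myo-1 with 0.498, 0.879, 0.101 and 0.602 TPM. The troponin gene tni-4 had 16.9, 11.9, 14.5 and 13.2 TPM, the organ identity gene pha-4 averaged 2.98 ± 1.18 TPM and the small secreted peptide gene phat-3 averaged 0.946 ± 0.438 TPM (SD, n = 4). Here replicate 3, not replicate 4, was the low library, with the lowest level at 10 of the 15 genes.

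Most neuronal genes were low, and 1 gene carried most of their summed level in replicates 1 to 3. The 29 genes had a median of 1.68 TPM and together held 0.0369%, 0.0384%, 0.0385% and 0.0344% of the protein-coding TPM. The synaptobrevin gene snb-1, of the synaptic vesicle membrane, led with 258, 232, 226 and 114.7 TPM. Without snb-1 the other 28 genes summed to 111.5, 152, 158 and 229.5 TPM, lowest in replicate 1 and highest in replicate 4. The release regulator gene unc-18 had 30.1, 29.98, 27.2 and 26.4 TPM. The touch neuron tubulin gene mec-7 had 4.19, 24.5, 27.5 and 54 TPM, and of the 29 genes 19 were lowest in replicate 1 and 18 highest in replicate 4.

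Peptide genes ranged from no read to over 200 TPM. Among 71 neuropeptide-like protein genes the highest were nlp-27 and nlp-28, of an epidermal antimicrobial cluster, and nlp-40, which is known from the intestine. They had means of 239 ± 54.5 TPM for nlp-27, 231 ± 34.6 TPM for nlp-40 and 133 ± 56.6 TPM for nlp-28 (SD, n = 4), and 1 gene of the list, nlp-22, had no read. The 31 FMRFamide-like peptide genes, which encode short neuropeptides, had a median of 2.11 TPM and were led by flp-6, flp-28 and flp-10 with 91.8 ± 23.3, 52.4 ± 8.50 and 20.9 ± 1.76 TPM. Of 39 insulin-like peptide genes, 30 were below 1 TPM and 5 of these, ins-8, ins-9, ins-21, ins-25 and ins-32, had no read. The highest was ins-19 with 2.55, 5.34, 36.6 and 43.8 TPM, high in replicates 3 and 4, and next were ins-34 and ins-27 with 13.3 ± 8.12 and 9.96 ± 1.93 TPM.

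Lists of small cell types ranged from over 100 TPM to no read. The gonadal sheath and spermatheca list of 8 genes was led by filamin (fln-1) with 118.9 ± 35.8 TPM and the gap junction genes inx-8 and inx-9 with 94.4 ± 12.3 and 26.3 ± 5.12 TPM (SD, n = 4). In the excretory cell list of 6, exc-4, aqp-8 and clh-3 had 37.2 ± 16.2, 9.58 ± 5.83 and 9.40 ± 5.61 TPM, all genes of channels. The coelomocyte genes cup-4 and unc-122 had 3.16 ± 0.514 and 0.512 ± 0.351 TPM. All 7 glial genes were below 1 TPM, the highest being kcc-3 (0.645 ± 0.0139 TPM), fig-1 (0.442 ± 0.422 TPM) and ptr-10 (0.244 ± 0.0573 TPM), and hlh-17 had no read.

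The cytosolic ribosomal proteins were the largest class by summed level. Their 79 genes held 17.6%, 17.6%, 18.4% and 21.2% of the protein-coding TPM, with a median of 2290 TPM, and 71 of the 79 averaged at least 1000 TPM. The highest were rps-8 with 6785, 6081, 6165 and 3186 TPM, rpl-6 with 5364, 5075, 5273 and 3442 TPM and rpl-24.1 with 4882, 4227, 4731 and 3894 TPM. Only rpl-42 of the 79 was below 1 TPM. Because these transcripts are short, they took 7.85% of the protein-coding reads on average when length was not scaled. The 6 elongation factor genes held 1.36%, 1.84%, 1.47% and 2.17%, with eef-2 and eef-1G next to eef-1A.1 at 2510 ± 674 and 1893 ± 103.5 TPM (SD, n = 4).

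The 66 nuclear genes of the respiratory chain held 1.71%, 1.72%, 1.79% and 2.02% of the protein-coding TPM. Within this sum, 8 genes were at least 2-fold higher in replicate 4 than in replicates 1 to 3 and 4 were 2-fold lower. Over the 6744 protein-coding genes with at least 10 TPM, 7.77% were 2-fold higher there and 40.4% 2-fold lower. The 66 genes were led by the ATP synthase subunit genes atp-2, atp-1 and hpo-18 with 2257 ± 252, 1701 ± 315 and 734 ± 95.8 TPM (SD, n = 4). The 12 genes of the mitochondrial genome held 1.79%, 1.15%, 2.24% and 1.15%, and after CYTB and COX1 the highest was COX3 with 3366 ± 1312 TPM. Replicate 3 was the highest library at 9 of the 12 genes and replicate 2 the lowest at 9.

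The 33 proteasome genes, whose products degrade tagged proteins, held 0.945%, 0.843%, 0.909% and 0.478% of the protein-coding TPM, lowest in replicate 4. There 31 of 33 had their lowest level and 18 were at least 2-fold lower than in replicates 1 to 3, with a median difference of -1.08. Over all genes with at least 10 TPM these values were 67.2%, 40.4% and -0.74. The highest were pas-5, pbs-1 and pbs-4 with 511 ± 56.0, 464 ± 127 and 401 ± 93.5 TPM (SD, n = 4). Among 22 heat shock and chaperone genes, hsp-1, hsp-90 and hsp-6 had 3360 ± 626, 2031 ± 704 and 525 ± 165 TPM, and 1 listed copy of hsp-16.1 had no read. Of 81 histone genes, 31 had no read, and the variant genes htz-1 and his-74 and the linker gene hil-4 were highest with 705 ± 289, 392 ± 195 and 388 ± 114 TPM. Many histone genes are near-identical copies, so the split of reads among them is uncertain.

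The 9 actin and tubulin genes held 0.859%, 1.04%, 0.788% and 1.16%, led by act-4 with 1002, 1270, 956 and 4479 TPM and by tbb-2 and tba-2 with 1820 ± 429 and 1341 ± 252 TPM (SD, n = 4). Among 58 transthyretin-like genes, ttr-15, ttr-2 and ttr-16 had 921 ± 458, 792 ± 552 and 488 ± 379 TPM, and ttr-11, ttr-19, ttr-57 and ttr-58 had no read. All 75 cytochrome P450 genes had at least 1 read. The highest of these were cyp-35A2, cyp-31A2 and cyp-35C1 with 96.3 ± 26.3, 95.5 ± 45.1 and 61.9 ± 18.9 TPM.

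**Figure D2:**
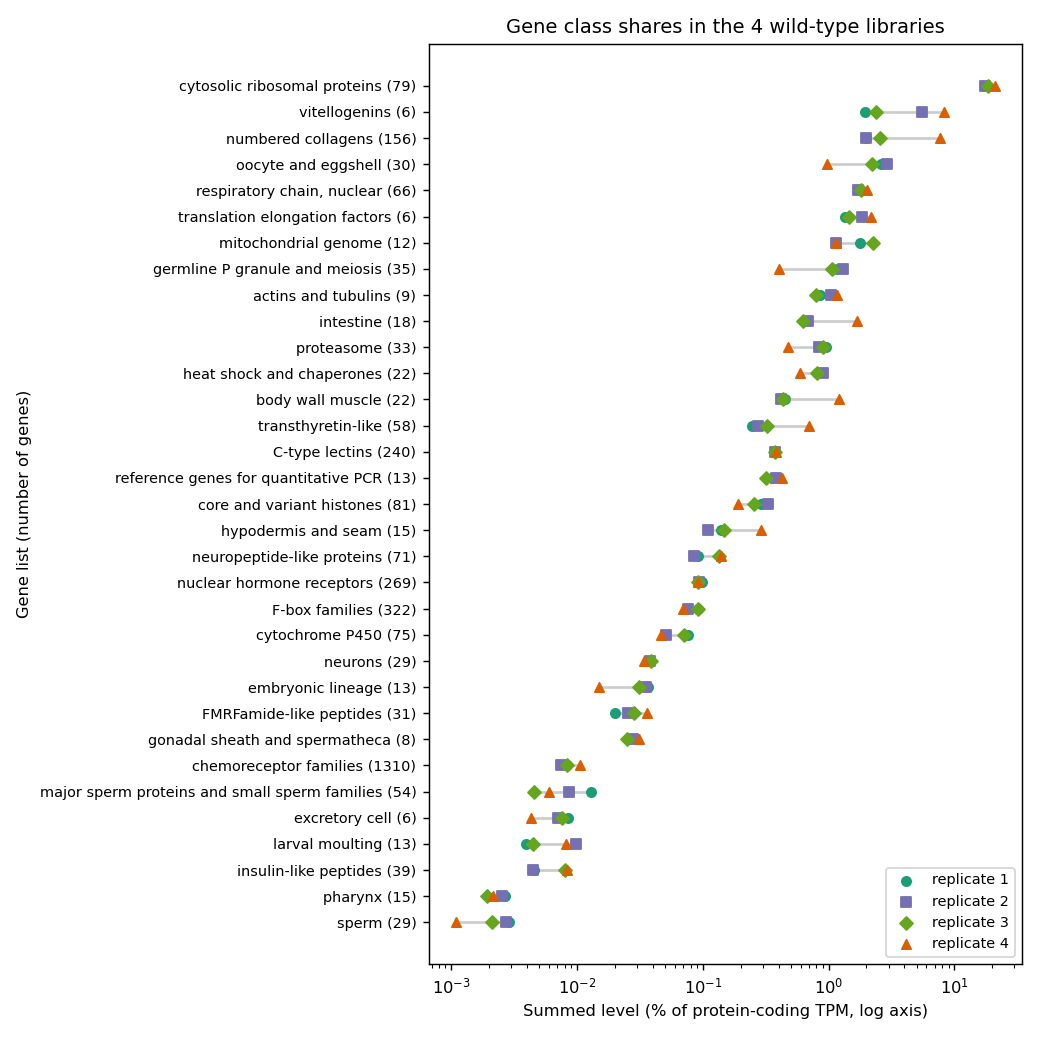
Each row is a gene list with its number of genes, and each symbol is the summed level of 1 wild-type library as a percentage of protein-coding TPM on a log axis. Ribosomal proteins are highest at 17.6% to 21.2%, and replicate 4 lies apart for collagens (7.63%), body wall muscle (1.21%) and oocyte and eggshell genes (0.978%).

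Among 13 genes often used as references for quantitative PCR, the steadiest was idhg-1, a mitochondrial dehydrogenase subunit gene, with 90.9, 97.1, 92.9 and 79.6 TPM. Its coefficient of variation (SD over mean) was 8.31%. The next were cyc-1 at 16.1%, mdh-1 at 18.1% and act-1 at 18.7%, with means of 270, 587 and 521 TPM. The coefficients were 30.2% for tba-1, 32.6% for eif-3.C, 32.9% for ama-1 and 36.5% for pmp-3. The least steady were gpd-3 at 108%, gpd-2 at 103.7%, csq-1 at 78.1%, cdc-42 at 45.9% and iscu-1 at 44.2%. In replicates 1 to 3 alone the coefficient fell to 6.86% for csq-1, 7.62% for cdc-42 and 6.2% for iscu-1, while ama-1 stayed at 34.8% and act-1 at 23%. The glyceraldehyde-3-phosphate dehydrogenase genes gpd-2 and gpd-3 are near-identical, so their split of reads is uncertain, and gpd-3 had 149, 211, 158 and 974 TPM.

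The steadiest genes with at least 100 TPM were atp-3, ndab-1, Y69A2AR.18, F13G3.10 and rps-4, with an SD of log2 level of 0.02 to 0.03. The ATP synthase subunit gene atp-3 had 523, 527, 520 and 533 TPM. The ribosomal protein gene rps-4 had 3843, 4078, 3954 and 3953 TPM. At both, replicate 4 lay with the other libraries.

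Large gene families of sensing and defence contributed little. The 1310 chemoreceptor genes, whose products sit mainly in sensory neurons, summed to 0.0083%, 0.00742%, 0.00835% and 0.0106% of the protein-coding TPM. Of these, 795 (60.7%) had no read and 1302 averaged below 1 TPM, and sri-40, srv-1 and srh-237 were highest with 22.5, 9.34 and 7.21 TPM. Of 240 C-type lectin genes, which include immune effectors, 70 had no read. The family was led by clec-87, clec-63 and clec-88 with 1116, 646 and 378 TPM, and summed to 0.374% to 0.383% in all 4 libraries. The lectins still moved singly: clec-87 had 1508, 1367, 1274 and 316 TPM and clec-63 had 277, 512, 456 and 1337 TPM.

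Of 322 F-box genes, 41 had no read, and fbxa-215, fbxa-210 and fbxc-50 led with 192, 52.5 and 41.9 TPM. Of 269 nuclear hormone receptor genes, 31 had no read. The highest was nhr-114 with 108, 110, 48.9 and 265 TPM, followed by nhr-49, a regulator of fat metabolism, with 114, 111, 95.4 and 34.9 TPM and nhr-23 as given above.

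Outside the protein-coding genes, the large subunit ribosomal RNA was highest in every library. These levels are in reads per 1000000 of all reads (CPM), not per length. The large subunit ribosomal RNA gene rrn-3.1 (I:15064838-15068346) had 10479, 48529, 59116 and 446621 CPM in replicates 1 to 4, and rrn-2.1 (I:15064301-15064453) had 13.8, 145, 88.4 and 1749 CPM. The annotated pseudogene F31C3.10 (I:15060299-15061150), which lies beside them, had 117, 676, 696 and 6585 CPM. All 3 were lowest in replicate 1 and highest in replicate 4. In replicate 1 F31C3.10 and rrn-2.1 lay below the pseudogenes F07H5.5, C01G5.2, ZC513.7 and C06A1.4, which had 353, 231, 218 and 212 CPM there. The other pseudogenes in the 10 highest by mean, F07H5.5, C01G5.2, ZC513.7, C06A1.4, F55A12.1 and C14B1.7, averaged 324, 209, 190, 180, 105 and 82.8 CPM, and WBGene00016117, which the annotation used does not hold, averaged 93.0 CPM.

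Small RNA genes were nearly empty. Of 15363 piRNA genes, 15033 (97.9%) had no read in any wild-type library, as did 583 of 634 tRNA genes, 208 of 258 miRNA genes and 105 of 129 snRNA genes. The shares were lower for snoRNA genes, with 187 of 346, for lincRNA genes, with 47 of 182, and for pseudogenes, with 1108 of 2103. The sources used here do not give the strand setting of the counting, so genes that overlap on opposite strands cannot be told apart.

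Of the 19725 protein-coding genes, 2403 (12.2%) had 0 reads in all 4 wild-type libraries. A count of 0 allows up to 3 reads in a library, which at the median transcript length of 1168 bases is 0.0765, 0.0801, 0.0765 and 0.125 TPM in replicates 1 to 4, counting error only. A further 1484 genes had 1 to 3 reads over the 4 libraries together, and 1042 had reads in 1 library only. The undetected genes were shorter, with a median length of 918 bases, against 1264 bases for those with reads. In all, 14244 genes had reads in every library, while 503 had reads in replicates 1 to 3 and none in replicate 4, and 203 had reads in replicate 4 alone.

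Chemoreceptors made up 795 of the 2403 undetected genes. By family the share with no read was highest for srw, with 86 of 109, then srz with 47 of 63, srbc with 50 of 71 and srj with 27 of 39. It was 125 of 193 for str and 140 of 220 for srh. The undetected genes were not all silent in the series, since 1821 had at least 1 read in some of the 16 other libraries and 346 had at least 10 reads in one of them. The highest of these were F59B2.12 with 535 reads and kin-26, a predicted kinase gene, with 318 reads, both in granulin 2 replicate 2. At least 10 reads in all 4 libraries of a strain were found for 0 of the genes in the null, 2 in granulin 1, 33 in granulin 2 and 17 in granulin 3. No read in any of the 20 libraries was found for 582.

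**Figure D3:**
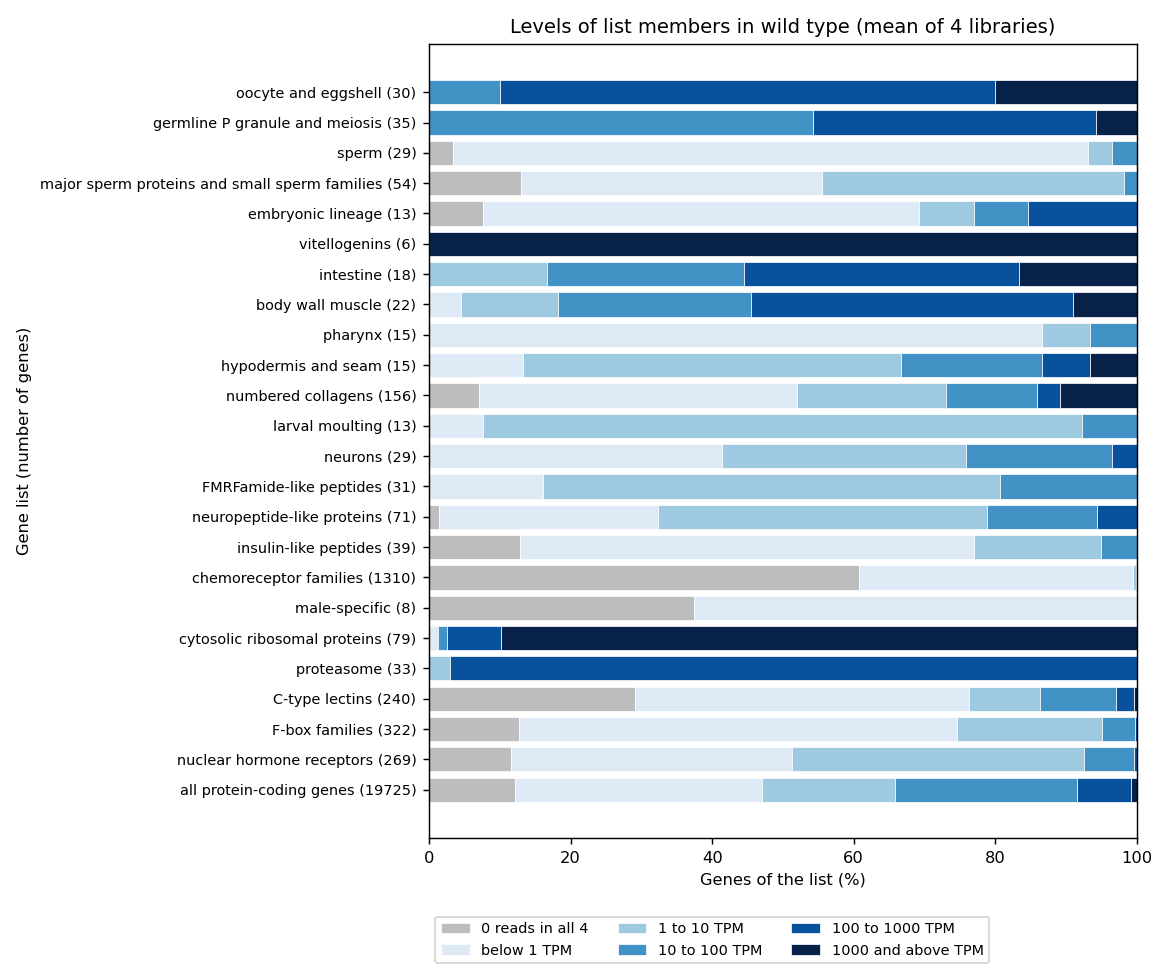
Each bar is a gene list, split by the percentage of its genes in 6 ranges of mean wild-type level, from 0 reads in all 4 libraries to 1000 TPM and above. All 6 vitellogenins and 71 of 79 ribosomal protein genes lie in the top range, while 795 of 1310 chemoreceptor genes have no read.

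The share of highly expressed genes varied by chromosome. Genes with at least 100 TPM made up 13.6% of the protein-coding genes of chromosome I, 13.5% of III, 9.24% of IV, 7.61% of II, 5.43% of V and 3.86% of X. The X chromosome held 8.92% of the protein-coding TPM, and 5.77% when the vitellogenins were left out, 5 of whose 6 genes lie there. Chromosome V had the largest share of genes with no read, 22.9%, and it carries 890 of the 1310 chemoreceptor genes. None of the 35 P granule and meiosis genes and none of the 29 sperm genes lies on X, and 1 of the 30 oocyte genes does.

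The spread between the libraries was smaller without replicate 4. Over the 10448 genes with at least 1 TPM, the median SD of log2(TPM + 1) was 0.44, and 0.19 in replicates 1 to 3. It was 0.33 for genes of 1 to 10 TPM, 0.52 for 10 to 100 TPM, 0.58 for 100 to 1000 TPM and 0.39 above 1000 TPM. In replicates 1 to 3 it was 0.21, 0.19, 0.18 and 0.15 in the same ranges. Of the 6744 genes with at least 10 TPM, 524 (7.77%) were at least 2-fold higher in replicate 4 than in the mean of the others and 2727 (40.4%) were 2-fold lower. Set against the other libraries in the same way, replicates 1, 2 and 3 had 305, 157 and 31 genes higher and 109, 47 and 34 lower. Within replicates 1 to 3 alone these counts were 7, 52 and 51 higher and 41, 27 and 12 lower.

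In replicate 4 levels relative to the other libraries were also lower for longer transcripts, with a slope of -0.39 on the log2 scale per doubling of length. The slopes of replicates 1, 2 and 3 were 0.15, 0.23 and 0.01. By chromosome, the median difference of replicate 4 from replicates 1 to 3 was -0.94 for I, -0.79 for II, -0.89 for III, -0.72 for IV, -0.58 for V and -0.05 for X. The part of ribosomal RNA, length and germline content in these differences was not tested.

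The genes with the largest spread fell into 3 patterns. Replicate 3 stood apart at pud-3 (V:2324634-2325152), which had 28.6, 47.2, 1290 and 71.8 TPM in replicates 1 to 4, and at its neighbour pud-4 (V:2326678-2327282), which had 7.55, 14.6, 335 and 42.3 TPM. Replicates 1 and 2 lay above 3 and 4 at dpy-14 (I:6843589-6845142), a cuticle collagen gene, with 17.2, 34.8, 1.61 and 0.970 TPM, and below them at ins-19. The other 6 of the 10 most variable genes were low in replicate 4 only, namely C27C12.3, meg-1, pup-2, T10C6.7, R04D3.3 and W05F2.3. The P granule gene meg-1 had 166, 194, 148 and 11.8 TPM, and C27C12.3 had 41.8, 42.3, 33.6 and 1.63 TPM. Within replicates 1 to 3 the most variable genes were pud-3, pud-4, asm-3, dpy-14, ins-19, irg-5, dpy-17, Y49G5A.1, sysm-1 and txt-4. Of these, the immune response gene irg-5 had 14.8, 4.16, 48.6 and 15.1 TPM and the sphingomyelinase gene asm-3 had 7.26, 2.66, 56.3 and 4.25 TPM, both high in replicate 3.

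**Figure D4:**
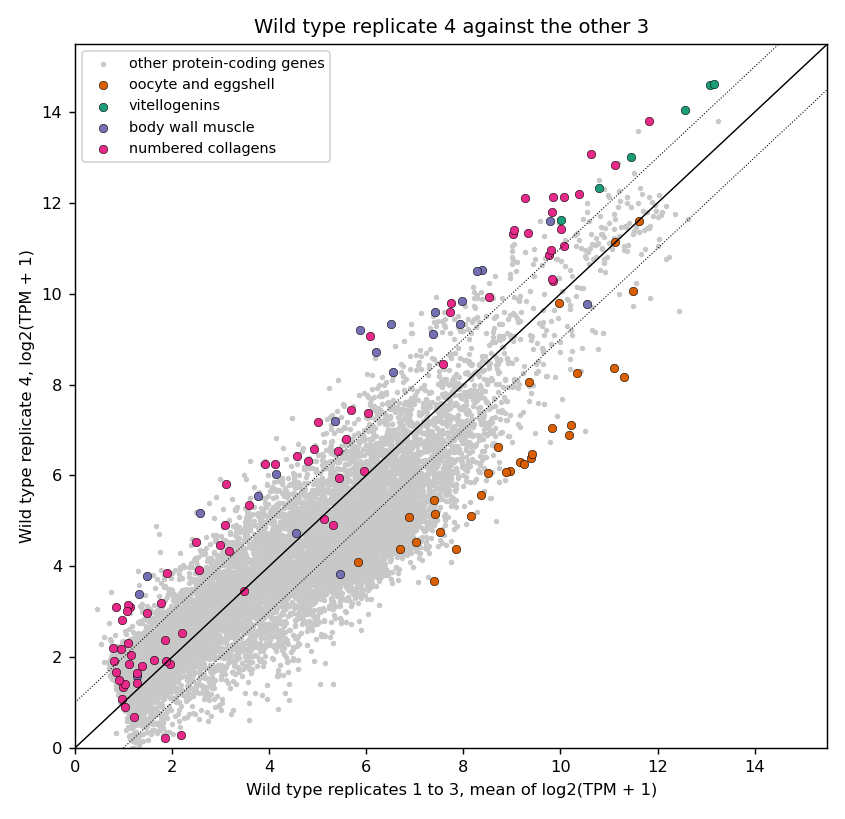
Each point is a protein-coding gene with at least 1 TPM, placed by its mean log2(TPM + 1) in wild type replicates 1 to 3 and by its value in replicate 4, with dotted lines at 2-fold. Most oocyte and eggshell genes lie below the diagonal (27 of 30 at least 2-fold lower). The vitellogenins, most body wall muscle genes (17 of 22 at least 2-fold higher) and most of the collagens plotted (47 of the family's 156 at least 2-fold higher) lie above it.

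To show where the wild type differed from the rest of the series, its 4 libraries were set against the mean of the 4 strains of the pgrn-1(-) background. The comparison used limma, a linear model fitted across all genes, on log2 CPM with trimmed-mean scaling, and p-values adjusted over 15737 genes by Benjamini-Hochberg. In the wild type 97 genes (0.616%) were higher and 1440 (9.15%) were lower at an adjusted p below 0.05, together 9.77% of those tested. At an unadjusted p below 0.05 there were 2792. The median difference over all genes was -0.01 on the log2 scale. The labels do not say what else the other strains carry beyond the named alleles, so strain history and pgrn-1 cannot be told apart. Granulin 1 replicate 3 also stood apart, with vitellogenins at 0.0673% of the protein-coding TPM, and without it 199 genes were higher in the wild type. The count of higher genes was 37 to 169 without 1 wild-type library, 46 without null replicate 2 and 20 with no scaling. The filter on low values, at least 0.177 CPM in 4 libraries, could be met in any strain, so genes that passed it only through other strains had to be lower in the wild type. Of the 1440 lower genes, 148 met 0.177 CPM in all 4 wild-type libraries, 871 met it in none, and all 1440 met it in at least 4 of the other 16. The count of lower genes is therefore a description and no measure of how often the wild type was lower.

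Sperm transcripts were scarcer in the wild type than in the granulin 2 and 3 libraries. In summed level the 54 genes of the major sperm proteins and small sperm families held 0.0129%, 0.00866%, 0.00453% and 0.00596% of the protein-coding TPM in the wild type. The null libraries held 0.0065% to 0.0388%, granulin 1 libraries 0.018% to 0.0504%, granulin 2 libraries 0.142% to 0.467% and granulin 3 libraries 0.0844% to 0.248%. The wild-type and null ranges overlapped, and the 3 granulin strains lay above the wild type.

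The 29 other sperm genes held 0.00109% to 0.0029% in the wild type. Null libraries ranged over 0.00231% to 0.0029% and granulin 1 libraries over 0.00138% to 0.00448%. Granulin 2 libraries ranged over 0.0125% to 0.0196%, and granulin 3 libraries over 0.00499% to 0.0144%. The null and granulin 1 ranges overlapped the wild type and those of granulin 2 and 3 lay above it. Of the 54 genes 48 passed the filter, 3 of them in all 4 wild-type libraries, and of the 29 genes 25 and 3. Most of those tested thus passed through other strains, and their calls are not counted here. Of the 3 major sperm protein and small sperm genes that met 0.177 CPM in all 4 wild-type libraries, 1 was called lower. Of the 3 other sperm genes that did so, none was. Among all 11742 genes tested that met it in all 4, 148 were lower. Among the genes highest in the wild type, the log2 difference was 0.33 for ssp-37, 0.33 for spe-44 and -0.53 for spe-6, without a call.

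**Figure D5:**
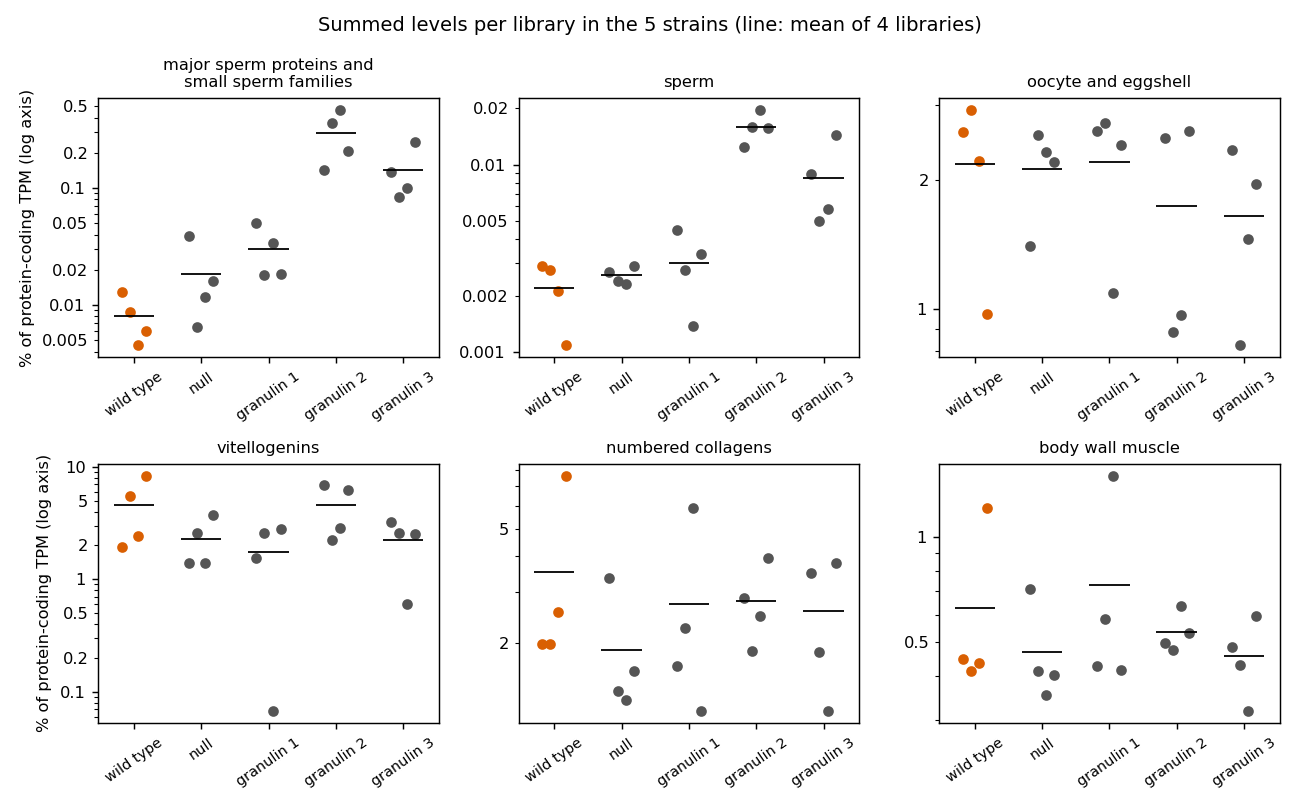
Points are single libraries of the wild type and of the null and the 3 granulin strains, with a line at each strain's mean, and the axes give the summed level of a gene list as a percentage of protein-coding TPM on a log scale. Major sperm protein and small sperm genes lie at 0.00453% to 0.0129% in the wild type and at 0.142% to 0.467% in granulin 2.

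The 8 genes with the largest fold among those lower in the wild type without overlap were C33F10.1, Y38C1AA.7, C17F3.1, msrp-2, C05C12.5, msp-38, C06A8.6 and msd-4, with log2 differences of -4.89 to -3.57. The largest, C33F10.1 (II:4835023-4835717), had 5, 0, 3 and 0 reads in the wild type and 7 to 1675 reads in the 16 other libraries, with a log2 difference of -4.89 ± 0.58 (SE). The major sperm protein gene msp-38 (IV:10143357-10143740) had 9, 5, 3 and 1 reads in the wild type and 14 to 1195 reads elsewhere, with a log2 difference of -3.64 ± 0.49 (SE). All 8 met 0.177 CPM in at most 2 wild-type libraries and passed the filter through other strains, so they had to be lower and no p is given. In all, 48 genes (0.305%) had every wild-type library below all 16 others, and 22 (0.14%) had every one above.

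Among the genes higher in the wild type, 6 were called without overlap in scaled CPM. F56A4.3 (V:2453414-2456147), a protein-coding gene, had 155, 162, 289 and 160 reads in the wild type and 0 reads in all 16 other libraries. Against a floor of 3 reads in each of those libraries, it was at least 108-fold higher in the wild type in mean scaled CPM. This bound depends on the scaling, which raised replicate 4 most. It passed the filter through the wild type alone, so no p is given. The pseudogene F15E11.10 (V:2345676-2348123) had 27, 26, 32 and 25 reads in the wild type, and 0 reads elsewhere except for 1 read each in granulin 2 replicates 2 and 3. Both genes lie on chromosome V, as do pud-3 and pud-4.

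The other 4 genes were higher by less. The astacin protease gene nas-6 had 15, 12, 12 and 7 reads in the wild type and 0 to 21 elsewhere, at 1.96 ± 0.39 on the log2 scale (SE; limma, adjusted p = 0.00162). The gene serp-1.1 averaged 220.7 scaled CPM in the wild type, with no library under 202, and had strain means of 63.9, 146, 54 and 104.1 in the null and granulin 1, 2 and 3, at 1.47 ± 0.33 (SE). The RNA-binding protein gene msi-1 differed by 0.88 ± 0.27 and F18C5.10 by 0.64 ± 0.17 on the log2 scale (SE; limma, adjusted p = 0.0444 and 0.0147). Of the 30 other settings run, msi-1 lost its call in 20, F18C5.10 in 7 and serp-1.1 in 3.

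Several abundant classes of the wild-type adult gave no call in this comparison. None of the 6 vitellogenins, 30 oocyte, 35 P granule and meiosis, 18 intestinal, 22 body wall muscle, 33 proteasome, 66 respiratory chain and 12 mitochondrial genes passed the threshold. Their median log2 differences were 1.39, 0.40, 0.32, 0.15, 0.26, 0.09, 0.09 and -0.35 in that order. With a length slope as covariate the oocyte median turned to -0.46 and the P granule and meiosis median to -0.05. Other abundant classes did hold calls, among them the collagens given below. Of 79 cytosolic ribosomal protein genes tested, 1 was lower, and it met 0.177 CPM in no wild-type library. Of 9 actin and tubulin genes, 1 was higher. Over all genes tested, 9.15% were lower and 0.616% higher. The wide spread of libraries within strains limits what these tests can show, and a missing call does not show equal levels.

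Collagens were called in both directions. Of 121 tested, 4 (3.31%) were higher in the wild type (col-10, col-43, col-46 and col-176, at 1.20 to 1.90 on the log2 scale) and 19 (15.7%) lower, beside 0.616% higher and 9.15% lower over all genes tested. Without wild type replicate 4, 0 were higher and 19 lower. Of the 19 lower collagens, 5 met 0.177 CPM in all 4 wild-type libraries. Of 114 C-type lectins tested, 6 (5.26%) were higher, and 1 without replicate 4. A further 21 were lower, of which 3 met 0.177 CPM in all 4 wild-type libraries.

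Among 21 insulin-like peptide genes tested, ins-19 was higher in the wild type, at 3.34 ± 0.95 (SE; limma, adjusted p = 0.0256). The wild-type libraries held 2.55 to 43.8 TPM of it, null libraries 2.83 to 16.3 and granulin 1 libraries 0.527 to 54.8 TPM. Granulin 2 libraries held 0.0698 to 0.265 TPM and granulin 3 libraries 0.175 to 4.28 TPM. All strains but granulin 2 overlapped the wild type at ins-19. The call at ins-19 was lost without wild type replicate 4. The 5 called lower, ins-6, ins-7, ins-22, ins-33 and ins-37, met 0.177 CPM in at most 2 wild-type libraries. They passed the filter through other strains, so they had to be lower and their count is no measure. Over all genes tested 9.15% were lower, a share that the filter also raises. Called higher were 2 of 15 hypodermal genes tested (nhr-25 and wrt-2), 1 of 13 moulting (dpy-3) and 1 of 9 actin and tubulin genes (act-1). Over all genes tested 0.616% were higher. None of these lists held a higher gene without replicate 4. In the hypodermis list 1 gene was lower, and it met 0.177 CPM in no wild-type library. Of 13 pharyngeal genes tested 2 were lower, and 1 of these met 0.177 CPM in all 4 wild-type libraries. This was the troponin gene tnc-2, which met it in all 20 libraries, at -1.51 ± 0.29 (SE; limma, adjusted p = 0.0014).

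Of 28 neuronal genes tested, 2 (7.14%) were lower in the wild type, beside 9.15% over all genes tested, a share that the filter raises. Both neuronal genes met 0.177 CPM in all 4 wild-type libraries, as did 23 of the 28. Of the 11742 genes tested that met it in all 4, 148 were lower. The gene unc-119, which acts in the nervous system's development, had 22.5, 16.9, 21.03 and 10.01 TPM in the wild type. The null libraries held 13 to 18.9 TPM of unc-119, granulin 1 libraries 11.9 to 21.3, granulin 2 libraries 41.9 to 82.4 and granulin 3 libraries 74.8 to 126 TPM. The dense core vesicle gene unc-31 had 0.460, 0.608, 0.728 and 0.761 TPM in the wild type. The null libraries held 0.453 to 0.671 TPM of unc-31, granulin 1 libraries 0.329 to 0.538, granulin 2 libraries 16.2 to 32.5 and granulin 3 libraries 0.596 to 1.33 TPM. The wild-type range was overlapped by the null and granulin 1 at unc-119, and by all but granulin 2 at unc-31.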

How the data were processed

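Total RNA of 20 samples of day 1 adults, 4 per strain, was sequenced. Per the submitters' processing notes, the build was ce11 and the tools were limma, edgeR, HTSeq and STAR, with no versions given. Per the file headers and values, the authors deposited log2 CPM (reads per 1000000) per gene ID, with a floor that stands for 0 reads. Whole reads were recovered from these values at a tolerance of 0.01 reads. IDs were matched to Ensembl release 115, which held 46603 of 46778.

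TPM was computed over 19725 protein-coding genes from summed exon length. The wild type was compared with the mean of the other 4 strains in limma 3.58.1 (R 4.3.3), on log2 CPM recomputed from the recovered reads with a prior count of 2 and trimmed-mean scaling. All 20 libraries entered the fit, for 15737 genes with at least 0.177 CPM in 4 libraries and 15 reads in all. Its call threshold was a Benjamini-Hochberg adjusted p of 0.05. The method was tested on simulated data. Figures used Python 3.11.15 and matplotlib 3.10.9. Intervals and floors cover counting error only.

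The 36 gene lists and the libraries described were chosen with earlier results of these data known, and the chemoreceptor list was corrected after its values were seen. Of the list entries, spe-50, tni-2 and bus-8 matched no gene. Genes were named by rule: the 25 highest, the 10 highest of other types, the 3 highest of each list and its members with no read where these were 10 or fewer, the 10 most and 5 least variable, up to 8 called genes in each direction without overlap, the quantitative PCR genes and pgrn-1. Other genes named as examples were chosen after their values were seen. Alternatives covered scaling, filters, prior count, weights, length, a block by label letter and leaving out each library. No sequences are printed.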

Additional observations from a re-analysis of the deposited data

Results flagged for a closer look

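Libraries were flagged where the highest or lowest of the 4 lay far from the others, by Dixon's test at the 95% level, which by chance flags about 1 in 20 groups of values. Of 155 genes tested 29 were flagged, 25 of them for replicate 4, and of 36 gene lists 3 were, all for replicate 4. The 155 genes include the most and least variable and the highest by a mean that replicate 4 enters, so the chance rate does not apply to their count. No explanation was tested.

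Ribosomal RNA took 44.8% of the reads of replicate 4, and rrn-3.1 (446621 CPM), F31C3.10 (6585 CPM) and rrn-2.1 (1749 CPM) were high in it. The summed levels of the intestine (1.67%), body wall muscle (1.21%) and the numbered collagens (7.63%) were also high in replicate 4.

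Replicate 4 was the high library at col-119 (14329 TPM), col-122 (7339 TPM), col-140 (8638 TPM), far-2 (12268 TPM), rpl-41.2 (6466 TPM) and ssp-37 (38.4 TPM). It was also high at the protease gene asp-1 (7563 TPM), the muscle genes mlc-2 (3092 TPM) and pat-10 (1459 TPM), act-4 (4479 TPM), ttr-2 (1616 TPM) and ttr-16 (1054 TPM). Of the quantitative PCR genes it was high at gpd-2 (639 TPM), gpd-3 (974 TPM), csq-1 (184 TPM) and iscu-1 (139 TPM).

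Replicate 4 was the low library at the ribosomal protein genes rpl-6 (3442 TPM) and rps-1 (3303 TPM), and at vig-1 (1805 TPM), cey-2 (1060 TPM), pbs-1 (276 TPM) and pal-1 (87.9 TPM). The other flags fell on replicate 3, high at pud-3 (1290 TPM) and pud-4 (335 TPM) and low at phat-3 (0.291 TPM), and on replicate 2, high at ama-1 (156 TPM).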

How the results depend on the processing

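The 1537 genes that differed between the wild type and the other strains became 875 with voom weights and 2321 with a length slope as covariate. The 1440 lower genes became 815 with voom weights, and were 1115 to 1291 without 1 wild-type library. The 97 higher genes were 20 with no scaling, 21 with protein-coding library sizes, 60 with voom weights, 647 with the length slope, and 37 to 169 without 1 wild-type library (169 without replicate 1, 37 without replicate 2 or 3, 47 without replicate 4). They were 46 without null replicate 2 and 199 without granulin 1 replicate 3, the extremes over the 16 other libraries. No scaling and protein-coding library sizes moved the median of all genes to -0.48 and -0.41 on the log2 scale. The cause of these differences was not tested. With the length slope as covariate the median of the oocyte list turned to -0.46 and that of the germline list to -0.05.

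Against granulin 1 and 3, which share label letters with the wild type, a replicate block by letter gave 965 calls (38 higher, 927 lower) and no replicate block gave 885 (25 higher, 860 lower). Same-letter deviations correlated at -0.28 to 0.58, so the letters were not taken as pairs.

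Genes not detected were 6353 when fewer than 10 reads in every library counted as none, and 2606 to 2697 without 1 library. Without length scaling the shares were 15.2% for vitellogenins, 7.85% for ribosomal proteins, 1.45% for the germline list and 0.0329% for neurons. The median SD was 0.42 with trimmed-mean scaling, 0.50 with a pseudocount of 0.1, 0.53 from 10 TPM and 0.19 to 0.49 without 1 library. Of the named genes' fold changes under these alternatives, 381 kept their call, 30 lost it and none reversed. Most of the kept calls were of genes whose direction the filter fixed, so this tally is no measure of robustness. These were the 8 lower genes, which had to be lower, and F56A4.3 and F15E11.10, which passed through the wild type alone. All 30 losses fell on msi-1 (20), F18C5.10 (7) and serp-1.1 (3). Replicate 4 had the fewest protein-coding reads, which limits calls of absence there most.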
